A study of Saccharomyces cerevisiae with 4 samples.

Results

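The 10 genes described here encode enzymes that make purine nucleotides in the budding yeast Saccharomyces cerevisiae, or convert a purine base for re-use. They are ADE4, ADE8, ADE6, ADE2, ADE13, ADE17, ADE12, IMD4, GUA1 and AAH1, 10 of 6212 rows in the deposited table. They were chosen by symbol, through the open reading frame names of the rows. Each of 4 spotted 2-colour arrays gave the ratio of total RNA from 1 culture to that from another. In the first comparison, untreated cells of the strain labelled DBY4741 with genotype reg1::KanMX were set against untreated wild-type DBY4741 cells, on 2 arrays. In the second, reg1::KanMX cells given 16 mM KOH for 10 min, which brought the medium to about pH 8, were set against reg1::KanMX cells given 16 mM KCl for 10 min in medium of about pH 5.5, also on 2 arrays. Both sides of the alkali comparison thus lack REG1, and wild-type cells under alkali were not analysed here. All cultures were grown to log phase in YPD, which is rich in glucose, at 28 °C. The labels swap the dyes between the 2 arrays of each comparison, and they do not say whether experiments 1 and 2 were separate cultures. If they were not, the spread that the p-values measure is technical.

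Purine nucleotides are built on a ribose phosphate in a series of steps that ends in inosine monophosphate (IMP). From IMP, one branch leads to AMP and the other to GMP, and salvage enzymes return free bases to the pool. In yeast, many ADE genes are activated by the transcription factors Bas1 and Pho2 when the cell is short of adenine, and the IMP dehydrogenases set the entry into guanine nucleotides. Growing cells use much of their purine supply for ribosomal RNA. REG1 encodes a subunit that steers the phosphatase Glc7 towards its targets when glucose is plentiful.

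The ratios were read as log2, so that 1 means 2-fold higher. Between 4746 and 5190 rows had a value on an array. The 2 arrays correlated across genes at r = 0.589 in the mutant comparison and at r = 0.954 in the alkali comparison. REG1 had log2 ratios of -1.10 and -0.96 on the mutant arrays, with a mean of -1.03 ± 0.10 (SD, n = 2, adjusted p = 0.032 by limma). Its negative sign on both arrays sets the direction there as mutant over wild type, though its call was lost with the spread from the mutant arrays alone (0.0686). It was not measured on the alkali arrays, where KOH over KCl is the likely direction, from the titles and the order of channels in the labels. Were it the other way, every alkali rise below would be a fall and the reverse, and the orders would be turned. URA3, another gene looked at as a check, had log2 ratios of 0.50 and 1.32 on the mutant arrays and did not pass (adjusted p = 0.0752, limma). Nothing about the labels or the direction is read from URA3. A gene is said to have risen or fallen where the limma adjusted p over all genes tested was under 0.05.

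Between YKL011C and YPR204W, the mutant and alkali columns of the deposited table are 2 rows out of step, and mutant values there were taken from the row 2 places below the name. This concerns ADE4, ADE2, ADE13, ADE17, ADE12, IMD4, GUA1 and AAH1. ADE8 and ADE6 were read at their own names. Around each of the 8 genes, in a window of 200 rows, missing values on the mutant arrays followed those on the alkali arrays in the reading used, with r = 0.735 to 0.798 between the numbers of arrays with a value. At the genes' own names that r lay between -0.057 and 0.125. Around ADE8 and ADE6 it was 0.815 and 0.646 at the own name, and none of 6 other readings was above 0.048. This match gives only the offset between the columns, not which of them moved. Ribosomal protein genes, which are known to be expressed together, were looked at for that after the values were seen. Between YKL011C and YPR204W all 49 measured had an alkali ratio below 0 at their own names, with a median of -1.67, and 2 rows above 32 of 46 had one, with a median of -0.54. For the mutant all 51 were below 0 at 2 rows further down, with a median of -0.555, and 30 of 45 at their own names, with a median of -0.17. Where no shift was made, between YBR048W and YKL010C, all 62 were below 0 at their own names in both comparisons, with medians of -1.73 and -0.55. Alkali values were therefore read at their own names throughout, and every mutant value of the 8 genes below depends on the reading 2 rows down.

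**Figure D1:**
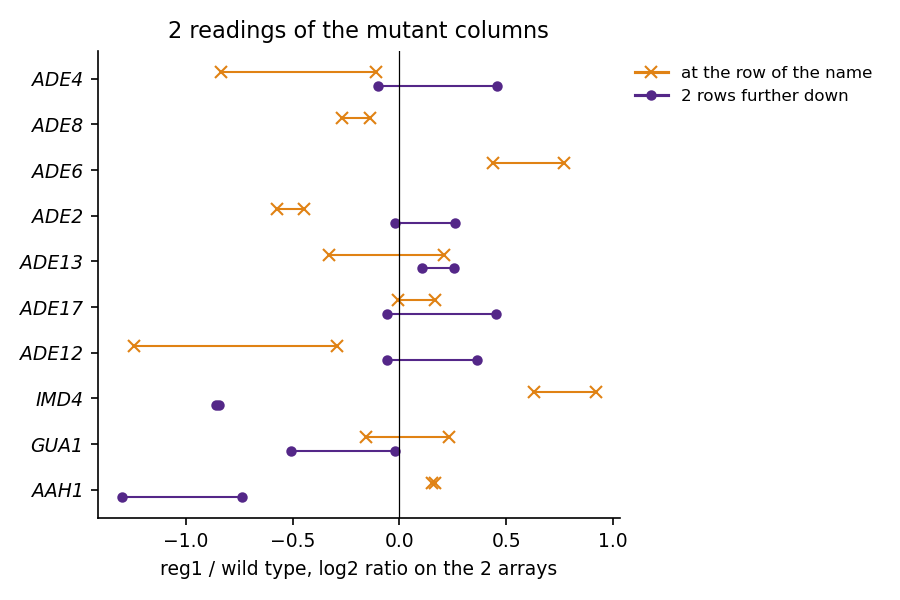
The log2 ratio of reg1 over wild type (horizontal axis) on both mutant arrays for each of the 10 genes, joined by a line, as found at the row of the gene's name (crosses) and 2 rows further down (dots). ADE8 and ADE6 need no second reading, and IMD4 changes from 0.63 and 0.92 to -0.845 and -0.859.

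In the reg1 mutant under normal growth, 2 of the 10 genes were lower than in wild type and none was higher. AAH1 was 2.03-fold lower and IMD4 was 1.80-fold lower, while the other 8 did not pass. Over all genes, 6.91% of 4702 passed in this comparison, 5.08% as higher and 1.83% as lower. None of the 10 changed by 2-fold or more on both mutant arrays, as 3.57% of all genes did. The median over the 10 genes was a log2 ratio of 0.14, against -0.05 over all genes tested.

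AAH1 encodes adenine deaminase, which turns adenine into hypoxanthine. Its log2 ratios were -0.74 on experiment 1 and -1.30 on experiment 2. Both arrays put AAH1 below wild type, though by different amounts, with a mean of -1.02 ± 0.40 (SD, n = 2, adjusted p = 0.0332, limma). IMD4 encodes an IMP dehydrogenase, the enzyme that commits IMP to guanine nucleotides. Its log2 ratios were -0.845 and -0.859, nearly the same on both arrays, with a mean of -0.85 ± 0.01 (SD, n = 2, adjusted p = 0.0276, limma). Only 1.0% of tested genes had a lower mean than AAH1 and 1.5% a lower mean than IMD4.

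These calls rest on the spread shared with the alkali arrays, which differed less from each other. The median absolute difference between paired arrays was 0.32 for the mutant and 0.18 for alkali. With the spread from the mutant arrays alone, neither gene passed (adjusted p = 0.106 for AAH1 and 0.109 for IMD4, limma). With 1 mutant array left out, AAH1 had -0.74 or -1.30 and IMD4 had -0.845 or -0.859. The spread in those fits comes wholly from the alkali arrays and holds no difference between mutant arrays. At its own name as deposited, IMD4 would have been higher in the mutant, with a mean of 0.78 (adjusted p = 0.0355), and AAH1 would have had 0.16 (adjusted p = 0.554).

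ADE6 had the highest mutant ratio of the 10 genes. It encodes FGAM synthetase, which adds an amide nitrogen on the way to IMP. Its log2 ratios were 0.77 and 0.44, above 0 on both arrays, and its mean of 0.60 ± 0.24 (SD, n = 2) did not pass (adjusted p = 0.0904, limma). No gene in this comparison passed with a mean closer to 0 than 0.69. ADE6 did pass with a dye term in the fit (0.0322) and with arrays scaled to the same spread (0.0382). The dye-term fit gave every gene the same spread. Scaling widened the mutant ratios, that of ADE6 from 0.65 after centring to 0.96. No rise is read from either pass.

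The other ADE genes lay near 0 in the mutant. ADE4 encodes the amidotransferase of the first step, and its log2 ratios were 0.46 and -0.10. ADE17, for the enzyme that carries out the last steps to IMP, had 0.45 and -0.06. ADE12, which encodes adenylosuccinate synthetase on the AMP branch, had 0.36 and -0.06. In these 3 genes the arrays differed in sign, as they did in ADE2 (0.26 and -0.02), which encodes AIR carboxylase. ADE13, for adenylosuccinate lyase, had 0.11 and 0.26. ADE8, for GAR transformylase, had -0.14 and -0.27, and GUA1, for GMP synthase, had -0.02 and -0.51. The 95% intervals of these 7 means reached from -0.71 (GUA1) to 0.70 (ADE4), so differences of up to about that size remain possible.

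Experiment 1 gave the higher ratio in 9 of the 10 genes, with ADE13 as the exception. The median difference between experiment 1 and experiment 2 was 0.38 over the 10 genes and 0.06 over all genes tested, of which 55.6% were higher on experiment 1. The mutant's RNA carried Cy5 in experiment 1 and Cy3 in experiment 2, so dye and experiment cannot be told apart here. In order of the mutant ratio, every gene from ADE6 down to ADE2 overlapped its neighbour in array values. ADE2 and ADE8 did not overlap, nor did GUA1 and IMD4. The 95% intervals of all neighbours overlapped.

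**Figure D2:**
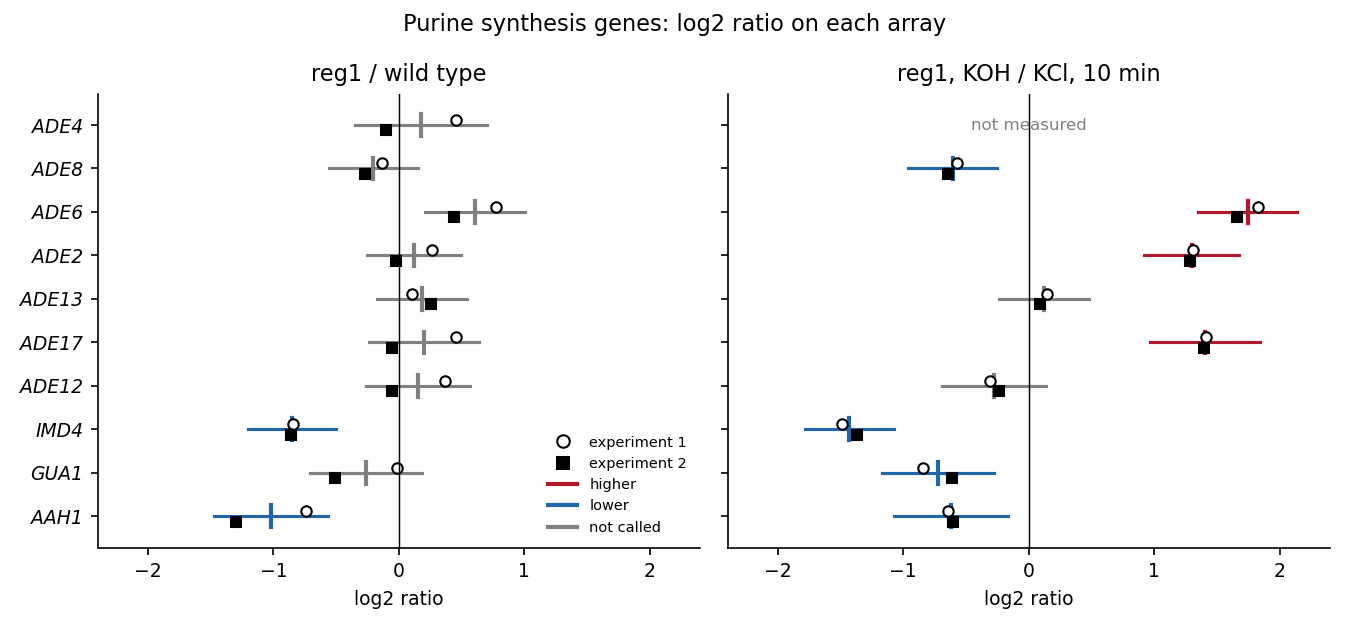
The log2 ratio (horizontal axes) of each of the 10 purine genes on experiment 1 (open circles) and experiment 2 (filled squares), in the mutant comparison (left) and the alkali comparison (right). Short vertical bars are means and horizontal lines are limma's 95% intervals, coloured by call. Under KOH, ADE6, ADE2 and ADE17 stand above 1 and IMD4 below -1 on both arrays, while most genes of the left panel lie near 0.

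After 10 min of KOH in reg1 cells, the genes moved in both directions. ADE6, ADE17 and ADE2, from the route to IMP, rose by 3.35-fold, 2.65-fold and 2.46-fold. IMD4, GUA1, AAH1 and ADE8 fell, IMD4 the most, being 2.69-fold lower. ADE13 and ADE12 did not pass, and ADE4 was not measured on either alkali array. Of the 9 genes measured, 7 passed, 3 higher and 4 lower, while 61.6% of 4521 genes passed over the whole table, 29% higher and 32.6% lower. With so many genes called, the count of 7 is near that background and is no result about these genes. The median over the 9 genes was -0.275, against -0.09 over all genes.

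ADE6 had log2 ratios of 1.83 and 1.66 after KOH, with a mean of 1.75 ± 0.12 (SD, n = 2, adjusted p = 5.76e-04, limma). This was the highest of the 9 genes, and 92.5% of all tested genes had a lower mean, in the likely direction. ADE17 had 1.41 and 1.40, a mean of 1.41 ± 0.01 (SD, n = 2, adjusted p = 0.00148). ADE2, whose loss is known for turning yeast colonies red, had 1.31 and 1.29, a mean of 1.30 ± 0.01 (SD, n = 2, adjusted p = 0.00118). In these 3 genes both arrays were more than 2-fold up and differed by 0.17 at most.

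IMD4 had log2 ratios of -1.49 and -1.37 after KOH, with a mean of -1.43 ± 0.08 (SD, n = 2, adjusted p = 7.25e-04, limma). Both arrays were more than 2-fold down, and 8.0% of tested genes had a lower mean, in the likely direction. Thus 4 of the 9 genes changed by 2-fold or more on both alkali arrays, as did 28.2% of all genes. The next enzyme on the GMP branch, GUA1, had -0.84 and -0.61, a mean of -0.725 ± 0.163 (SD, n = 2, adjusted p = 0.0163).

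AAH1 had log2 ratios of -0.64 and -0.60, a mean of -0.62 ± 0.03 (SD, n = 2, adjusted p = 0.0294, limma). ADE8 had -0.57 and -0.64, a mean of -0.605 ± 0.05 (SD, n = 2, adjusted p = 0.014). ADE8 was the only one of the genes measured on the route to IMP that fell. The falls of ADE8, GUA1 and AAH1, all under 2-fold, depended on the setting. With the spread from the alkali arrays alone all 3 passed (adjusted p = 0.00824, 0.007 and 0.00751, limma). Scaling arrays to the same spread shrank the alkali ratios, that of AAH1 from -0.54 after centring to -0.37. It also widened the mutant ratios, whose differences enter the shared spread, so a loss of alkali calls there is partly built in. None of the 3 passed with arrays scaled to the same spread (adjusted p = 0.136, 0.183 and 0.281), where ADE6, ADE17, ADE2 and IMD4 did. Nor did they pass without either alkali array (0.0937 to 0.218), where 1 array is left and the spread comes wholly from the mutant arrays, which differed more.

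ADE13 acts both on the route to IMP and on the AMP branch. Its log2 ratios of 0.15 and 0.09 gave a mean of 0.12 with a 95% interval of -0.24 to 0.48 (adjusted p = 0.502, limma). ADE12, which acts just before ADE13 on the AMP branch, had -0.31 and -0.24, with an interval of -0.69 to 0.14 (adjusted p = 0.199). The arrays of each gene lay close together, and neither gene's interval reached 2-fold in either direction.

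In the order of alkali ratios, the array values did not overlap between ADE6, ADE17, ADE2, ADE13, ADE12 and ADE8, each against the next. ADE8, AAH1 and GUA1 overlapped, and IMD4 stood below them. By 95% interval only ADE2 and ADE13 were apart, with a gap of 1.18 between their means. By interval, the listed genes therefore hold 1 gap, between the 3 genes that rose and the rest. It depends on the list, since ADE57 and ADE3, described below, have means inside it (0.865 and 1.03).

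**Figure D3:**
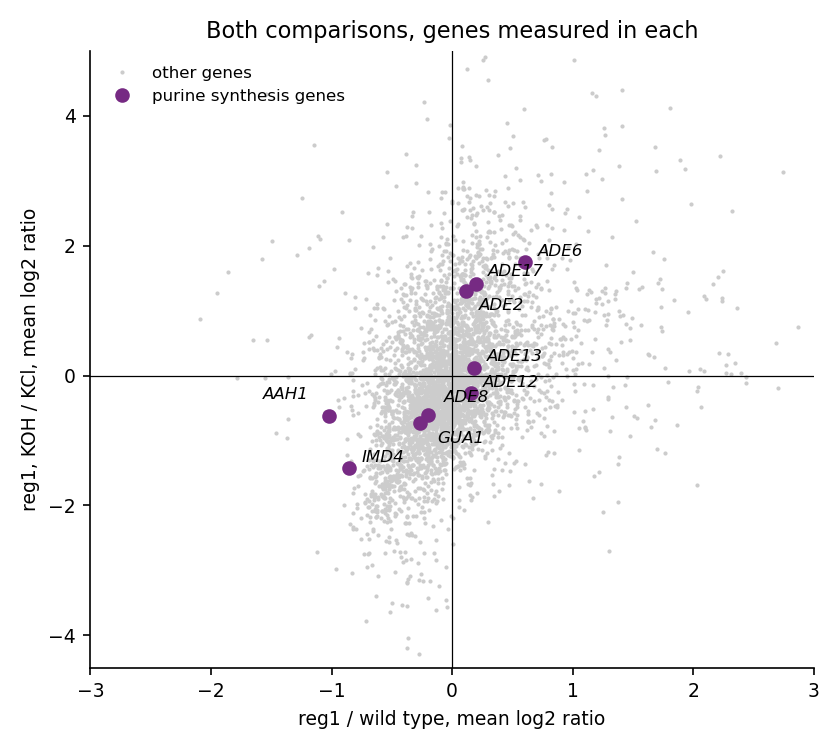
Mean log2 ratio of reg1 over wild type (horizontal axis) against that of KOH over KCl in reg1 (vertical axis) for 4257 genes measured on all 4 arrays, of which 14 lie outside the axes. The 9 purine genes measured in both are named. IMD4 and AAH1 lie low on both axes, and ADE6, ADE17 and ADE2 lie high on the alkali axis.

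Set side by side, the 2 genes that fell in the mutant also fell when that mutant met alkali. Over all genes 32.6% fell under KOH, and the share among all genes lower in the mutant was not counted. The ribosomal protein genes described above also lay below 0 in both comparisons, so ratios below 0 in both are not particular to these 2 genes. IMD4 had -0.85 and then -1.43, and AAH1 had -1.02 and then -0.62. ADE2 had 0.12 in the mutant and 1.30 after KOH, and ADE17 had 0.20 and 1.41. Both comparisons use reg1 RNA, from untreated cells in one and from KCl-treated and KOH-treated cells in the other. Whether alkali acts differently on these genes in wild-type cells was not tested.

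Of the other de novo purine enzymes, ADE57, which encodes the enzyme of 2 early steps, and ADE3, whose product supplies folate units to the route, rose after KOH. Their means were 0.865 ± 0.134 and 1.03 ± 0.28 (SD, n = 2, adjusted p = 0.00484 and 0.00351, limma). ADE16, the close copy of ADE17, had 0.21 and 0.19 and did not pass (adjusted p = 0.303). ADE17 thus rose to 1.41 while ADE16 lay at 0.20, and their array values did not overlap. ADE1 lies in rows that were left out. In the mutant, none of the 3 tested passed, with means of 0.13 to 0.20.

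The other IMP dehydrogenase genes, IMD2 and IMD3, fell after KOH, with -0.61 ± 0.03 and -0.585 ± 0.064 (SD, n = 2, adjusted p = 0.0299 and 0.0277, limma). Neither passed with arrays scaled to the same spread (0.333 and 0.252), and IMD2 did not after centring each array (0.0541). IMD4 fell further than both, and its arrays did not overlap theirs. In the mutant IMD2 had -0.43 and 0.12 and IMD3 had 0.08 and -0.37, so that IMD4 alone of the 3 had the same sign on both arrays. These genes are close copies, as are ADE16 and ADE17, and their spots may share signal. No row was matched to IMD1.

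The steps were also counted, in a grouping made after the values were seen, and the counts stand beside the 29% of all genes that rose under KOH and the 32.6% that fell. Of 7 measured enzymes on the route to IMP 4 rose and 1 fell, with a median of 0.865. ADE3, which rose, was not counted among them. All 4 measured genes from IMP to GMP fell, with a median of -0.67. The 2 genes of the AMP branch, ADE12 and ADE13, did not pass, and ADE13 is counted on the route to IMP as well. Of 8 genes for base and nucleoside salvage, AAH1 included, 6 fell, with a median of -0.715. AMD1 and ISN1 were left out of this group, and both rose after KOH (1.565 and 0.74), so its lack of rises depends on the grouping. With so few genes in a step, nothing particular to a step is read from these counts. With arrays scaled to the same spread the 4 rises on the route to IMP passed, but only IMD4 passed on the GMP branch and none of the 8 salvage genes did.

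Among salvage and interconversion enzymes apart from AAH1, 2 of 9 tested rose after KOH and 5 fell, with a median of -0.705. These 7 calls stand beside the 61.6% of all genes called under KOH, as do the counts of the lists that follow, with 29% higher and 32.6% lower. HPT1, which salvages hypoxanthine and guanine, fell furthest, with -1.93 and -1.91 (adjusted p = 0.00171, limma). APT1, for adenine salvage, fell to -0.865, its copy APT2 to -0.705, the adenosine kinase gene ADO1 to -0.725 and the purine-cytosine permease gene FCY2 to -0.75. AMD1, which encodes AMP deaminase and so returns AMP to IMP, rose with 1.5 and 1.63 (adjusted p = 6.53e-04). ISN1, for an IMP-specific nucleotidase, rose to 0.74. XPT1 had -0.39 and PNP1 had -0.255, and neither passed. With arrays scaled to the same spread, AMD1 alone of the 7 called genes still passed (adjusted p = 0.0152, limma). HPT1 (0.0668) and ISN1 (0.056) were among those that did not. In the mutant none of the 9 passed, the highest being APT2 with 0.63 and the lowest APT1 with -0.37.

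**Figure D4:**
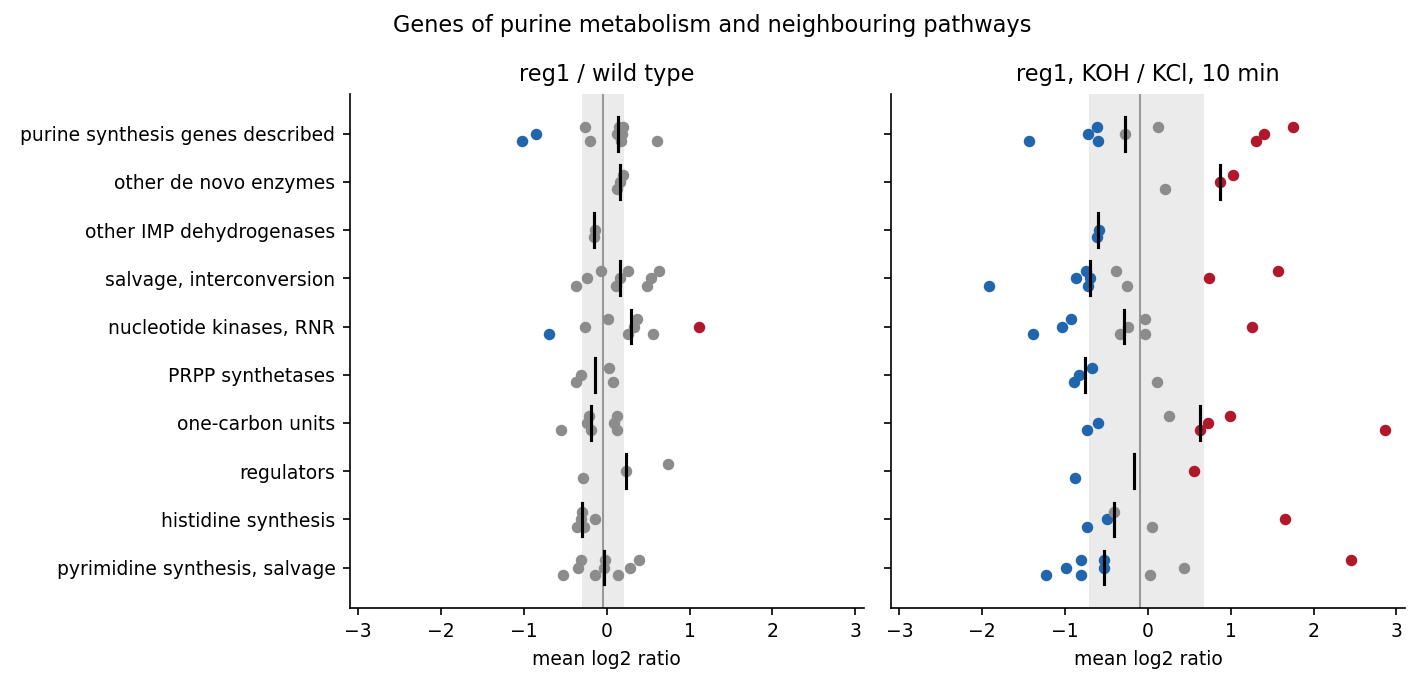
Mean log2 ratio (horizontal axes) of each tested gene in the purine lists and in neighbouring pathways, in the mutant (left) and alkali (right) comparisons, with red for higher, blue for lower and grey for not called. Black bars are list medians, the grey line is the median of all genes and the shaded band holds the middle quartiles of single genes, which is no measure for a list's median. Under KOH the list medians run from -0.755 for the PRPP synthetases to 0.865 for the other de novo enzymes.

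Genes that supply the pathway also moved in both directions. Of 4 genes for PRPP synthetases, which make the activated ribose that ADE4's product uses, 3 fell after KOH, PRS3 to -0.895, PRS1 to -0.835 and PRS5 to -0.675, and PRS2 had 0.105. PRS4 lies in rows that were left out. Of 7 one-carbon genes 4 rose and 2 fell, where 61.6% of all genes were called under KOH. GCV2, a subunit of the glycine decarboxylase, had 2.79 and 2.94, a 7.29-fold rise (adjusted p = 1.78e-04, limma). The cytosolic serine hydroxymethyltransferase gene SHM2 rose to 0.99, the folate dehydrogenase gene MTD1 to 0.73 and GCV1 to 0.63, while GCV3 fell to -0.74 and the mitochondrial SHM1 to -0.60. MIS1 had 0.26. With arrays scaled to the same spread, GCV2 and SHM2 passed and no PRPP synthetase gene did. In the mutant, none of these 11 genes passed, and their means lay between -0.55 and 0.12.

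Downstream of GMP, GUK1, which encodes guanylate kinase, fell in both comparisons. It had -0.72 and -0.69 in the mutant (adjusted p = 0.0456, limma) and -1.42 and -1.36 after KOH (adjusted p = 7.55e-04). The mutant call was lost after centring each array (0.0543) and with the spread from the mutant arrays alone (0.164). RNR3, an inducible subunit of ribonucleotide reductase, rose in both, with log2 means of 1.12 ± 0.06 (SD, n = 2, adjusted p = 0.0265) and 1.26 ± 0.40 (SD, n = 2, adjusted p = 0.00254). Its mutant call too was lost with the spread from the mutant arrays alone (0.0512). Of the 8 kinase and reductase genes tested after KOH, the other called ones were ADK1 (-1.03) and RNR1 (-0.925), both lower, and neither passed with arrays scaled to the same spread (0.172 and 0.123). The other 4, ADK2, YNK1, RNR2 and RNR4, did not pass in either comparison.

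Of the regulators, PHO2 was higher after KOH, with 0.61 and 0.50 (adjusted p = 0.0487, limma), and GCN4, an activator of amino acid synthesis genes that also bears on some ADE genes, was lower at -0.885 (adjusted p = 0.00741). Neither passed with arrays scaled to the same spread (0.248 and 0.158). In the mutant BAS1 had -0.32 and -0.26, PHO2 0.54 and -0.08, and GCN4 0.49 and 0.99, and none passed.

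The histidine route shares an intermediate with the purine route, since it releases the substrate of ADE16 and ADE17. Of 5 histidine genes tested after KOH, HIS4 rose with 1.82 and 1.49 (adjusted p = 8.76e-04, limma), HIS1 fell to -0.73 and HIS7 to -0.495, and HIS5 (0.045) and HIS6 (-0.415) did not pass. HIS1 and HIS7 did not pass with arrays scaled to the same spread (0.091 and 0.3), nor HIS7 after centring each array (0.0667). HIS2 was not measured. The pyrimidine genes had 1 rise, 6 falls and a median of -0.535 over 9 tested, against 61.6% of all genes called and 32.6% called lower. The rise was that of URA2, for the enzyme of the first pyrimidine steps, with 2.57 and 2.33 (adjusted p = 2.12e-04). The falls were FCY1 (-1.23), URA5 (-0.99), FUR1 (-0.81), URK1 (-0.81), URA4 (-0.535) and URA10 (-0.53). None of these falls passed with arrays scaled to the same spread, while URA2 and HIS4 did. URA1 (0.03) and URA8 (0.43) did not pass. After centring each array URA8 passed (adjusted p = 0.0278, limma), and URA4 and URA10 did not (0.0527 and 0.0571). URA6 and URA7 lie in rows that were left out. In the mutant no gene of either list passed, with histidine means of -0.36 to -0.15 and pyrimidine means of -0.53 to 0.39. No test of a difference between these lists and the 10 purine genes was made.

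The 10 genes did not share 1 pattern over the 4 arrays. The median profile of the 9 measured on all arrays was 0.11 and -0.06 in the mutant and -0.31 and -0.24 after KOH. The Euclidean distance of the 9 genes from it ran from 0.26 for ADE12 to 2.98 for ADE6. Of 4248 other genes, 71 were nearer to it than ADE12. The 5 nearest were ERV46, YMR099C, YML6, YDR061W and FCP1, at distances of 0.08 to 0.12.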

How the data were processed

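The values deposited by the authors are log ratios, 1 for each row on each array, read here as log2. The base is not stated: the highest value, 9.1, would be 549-fold in base 2 and 8955-fold as a natural log. Small spots and weak ones had been dropped, per the labels. How spots were scanned, corrected for background and normalized is not given in the sources used here. Spot signal is unknown. Of 6212 rows, 5662 matched a RefSeq locus tag of assembly R64. No genome build is named, so no coordinates are given.

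Rows YAL067C to YBR047W and 20 rows beside each change of register were left out of both comparisons (279 rows), and mutant values from YKL011C on were read 2 rows further down. Each comparison's mean was tested against 0 with limma 3.58.1 in R 4.3.3, with 4 arrays in 1 fit, rows measured on both arrays of the comparison, and Benjamini-Hochberg adjustment. The prior had 3.69 degrees of freedom. The code was tested on simulated data. The number of arrays limits the precision known here, beside the limits given above for the labels, the dyes, spot signal and the reading of rows.

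The 10 genes, the other lists, the tests and the alternatives were chosen with earlier results of these data known. All 10 genes are named. In the other lists, called genes and the largest means are named, with others added to account for every gene. The 5 nearest patterns were taken by distance to the median profile. Promoter motifs were not analysed here. Same-numbered arrays of the 2 comparisons are not said to share a culture or day, and their deviations correlated at r = -0.094, so the numbers were not used to pair arrays.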

Additional observations from a re-analysis of the deposited data

How the results depend on the processing

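The alkali changes of ADE6, ADE17, ADE2 and IMD4 kept their direction and passed in all 12 alternatives, with ranges of 1.24 to 1.83, 1.01 to 1.49, 0.94 to 1.38, and -1.49 to -0.92. The 12 are not independent checks: centring, scaling and leaving out an alkali array alone moved these means, and the spread from the alkali arrays alone gave the same p-values as leaving out either mutant array. Those of ADE8, GUA1 and AAH1 kept their direction and passed in 9 of 12 each. For alkali, scaling the arrays to the same spread left 1240 genes called (740 higher and 500 lower, against 1310 and 1474), 4 purine genes and a purine median of -0.13. Centring gave a median of -0.195. Leaving out 1 array of either comparison gave 1110 to 3224 genes, 4 to 7 purine genes and medians of -0.31 to -0.24. For the mutant, 204 genes and 0 of 2 purine genes were called over the rows that need no realignment, which are fewer by construction. With the spread from the mutant arrays alone 153 genes and 0 purine genes passed, with scaling 541 genes, and with a dye term 668. Scaling widened the mutant ratios, and the dye-term fit gave every gene the same spread, so these 2 counts are not like the others. Over 11 alternatives, the mutant fall of IMD4 was kept in 5, lost its call in 5 and turned sign in 1. For AAH1 these numbers were 6, 4 and 1. These 11 are not independent either: leaving out either alkali array gave the same p-values as the spread from the mutant arrays alone. Leaving out 1 array gave 153 to 218 genes, 0 to 1 purine genes and medians of -0.059 to 0.136. With names as deposited 1 purine gene passed, and 7 means turned sign because they belong to other rows in the reading used: ADE4 -0.47, ADE2 -0.51, ADE13 -0.06, ADE12 -0.77, IMD4 0.78, GUA1 0.038 and AAH1 0.16. Without mutant experiment 1, ADE2, ADE17 and ADE12 turned sign, none of them called, and without 1 array they ranged from -0.023 to 0.261, from -0.059 to 0.453 and from -0.058 to 0.364. Where not stated, the cause was not tested.

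With the experiment number as a replicate block, over rows measured on all 4 arrays, 357 genes passed for the mutant and 2630 for alkali, with 2 and 7 purine genes, the same numbers of purine genes as without it. Spot signal is unknown, so what it limits cannot be given.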

Other observations

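A few genes of the purine lists had a value on only 1 array of a comparison and were not tested. BAS1, the activator of ADE genes, had a log2 ratio of -2.51 on alkali experiment 2 and no value on experiment 1. GUD1, for guanine deaminase, had 2.08 on alkali experiment 2 and -0.74 on mutant experiment 1.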
